A study of Homo sapiens with 38 samples.

Results

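The genes described here are the replication-dependent histone genes, 49 clustered genes that encode the H1 linker histone and the H2A, H2B, H3 and H4 core histones. They were taken by symbol from tables of 60252 genes and comprise 4 H1, 11 H2A, 15 H2B, 9 H3 and 10 H4 genes. Of the 49, 44 matched a row, and H2BC7, H2BC8, H3C2, H3C3 and H4C2 were not analysed here. RefSeq places 46 of the 49 on chromosome 6, in the large histone cluster, and 3, H2AC20, H2BC18 and H2BC21, on chromosome 1. The study measured RNA in RWPE-1, an immortalised line of normal prostate epithelium, and in C4-2B, a prostate cancer line, after a prostate cancer risk region in 7p15.2 had been deleted and after overexpression of the homeobox gene HOXA13. In RWPE-1, 3 libraries came from cells that received a HOXA13 expression vector and 3 from cells with the matching eGFP plasmid. Both were harvested 48 hours after transfection, and the top 10% of cells by eGFP were sorted from 3 flasks each. A further 7 RWPE-1 libraries came from genome-edited cells without the risk region and 5 from wild-type cells labelled as genome editing controls. Whether those 12 libraries stem from different clones or cultures is not in the labels, and the p-values below therefore reflect spread among libraries that may be technical. In C4-2B, which is tetraploid, the 3 fully deleted clones le5, ld9 and m were made by repeated editing from a pair of partly deleted colonies, so some of them share a founder, and they were set against control lines 1, 2 and 3, with 3 libraries per line. A line made from 1 clone carries whatever else distinguishes that clone. RWPE-1 cells grew in a serum-free keratinocyte medium and C4-2B cells in medium with fetal bovine serum. Levels are TPM, a relative transcript abundance scaled to gene length and library total, as deposited, and no read depth is known for them.

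Replication-dependent histone genes are switched on at the entry to S phase, when new DNA has to be packed into nucleosomes. H2A, H2B, H3 and H4 form the core around which DNA is wound, and H1 binds the linker DNA between cores. Their mRNAs carry no introns and, unlike other mRNAs, usually end in a conserved stem-loop bound by the protein SLBP instead of a poly(A) tail. Some members, such as H2BC5, H2BC21 and H2AC6, are also known to give polyadenylated transcripts. The labels name a stranded mRNA kit, and kits of this kind capture poly(A) tails, so the levels below are those of the transcripts that were captured and not of all histone mRNA. Members within a type are close in sequence, and reads shared between copies could have been assigned to either; H3C14 and H3C15, a related pair outside the list, had equal TPM in all 36 libraries. In bulk RNA, fewer cells in S phase and less histone RNA per cell cannot be told apart.

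The promoters of some members named often below are shown because genes of 1 type are known to share short elements upstream of the start. Most of the genes called below are not among them. Each line gives the 150 bases before the RefSeq start site (GRCh38.p14), 5′ to 3′ on the gene's own strand, and the levels come from tables made on another build. Capitals mark 4 motifs: the octamer ATTTGCAT, CCAAT and the H1 element AAACACA on either strand, and TATAAA on the gene's strand. H1-2 lies at chr6:26056471-26056620, minus strand; H2AC6 at chr6:26124022-26124171, plus strand; H2BC12 at chr6:27146859-27147008, minus strand. H2BC21 lies at chr1:149886683-149886832, minus strand; H3C10 at chr6:27809901-27810050, plus strand; H4C8 at chr6:26285535-26285684, minus strand.
H1-2: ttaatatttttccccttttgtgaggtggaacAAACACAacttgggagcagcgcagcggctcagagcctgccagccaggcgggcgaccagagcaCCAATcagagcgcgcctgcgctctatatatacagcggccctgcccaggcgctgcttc
H2AC6: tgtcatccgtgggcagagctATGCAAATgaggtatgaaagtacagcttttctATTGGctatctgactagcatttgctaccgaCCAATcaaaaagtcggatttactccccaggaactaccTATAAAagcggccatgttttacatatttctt
H2BC12: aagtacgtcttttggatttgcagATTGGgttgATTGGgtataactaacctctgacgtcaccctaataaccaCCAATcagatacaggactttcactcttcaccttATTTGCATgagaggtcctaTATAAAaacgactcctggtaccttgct
H2BC21: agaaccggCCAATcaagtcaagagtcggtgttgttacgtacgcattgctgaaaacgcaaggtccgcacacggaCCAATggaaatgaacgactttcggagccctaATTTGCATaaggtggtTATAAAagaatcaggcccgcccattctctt
H3C10: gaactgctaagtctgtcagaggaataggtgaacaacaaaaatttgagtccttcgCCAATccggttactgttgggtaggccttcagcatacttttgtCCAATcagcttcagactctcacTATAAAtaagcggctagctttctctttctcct
H4C8: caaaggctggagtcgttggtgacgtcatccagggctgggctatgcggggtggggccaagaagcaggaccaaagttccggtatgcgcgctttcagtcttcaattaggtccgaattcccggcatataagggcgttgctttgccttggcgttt
Promoters of 44 of the 49 members were in the table, 1 start site each, and 250 bases upstream of each start were searched. The octamer was found in 8 of 10 H2A and 12 of 15 H2B promoters, in 1 of 7 H3 promoters and in 0 of 4 H1 and 0 of 8 H4 promoters, against 1.66% of 27305 gene promoters. AAACACA was found in 4 of 4 H1 promoters and in 0 of the promoters of the other types, against 4.95% of all promoters. TATAAA was present in 26 of 44 members (59.1%), against 7.17% of all. CCAAT was present in 38 of 44 members (86.4%), against 33.0% of all, but in 2 of 8 H4 promoters. The windows of divergent neighbours such as H2AC6 and H2BC4 overlap, so these counts include shared letters. A match is a description of the letters, and no binding was measured.

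Of the 44 matched members, 41 reached 1 TPM in some library of the 36 and 9 did so in every one (H1-2, H2AC6, H2AC20, H2BC5, H2BC11, H2BC12, H2BC18, H2BC21 and H4C3), while H1-3, H4C9 and H4C12 stayed under 1 TPM throughout. H2BC12, an H2B gene, had the highest mean and alone made up 24.4 to 43.2% of the members' summed TPM, and H1-2 was second. H2B genes gave the highest sum of any type in every library and H3 genes the lowest. The summed TPM was 263 to 287 in HOXA13 libraries, 317 to 326 in eGFP libraries, 109.5 to 161 in RWPE-1 deletion libraries and 96 to 493 in their controls. In C4-2B it was 305 to 459 in deletion libraries and 146 to 326 in control libraries. The RWPE-1 and C4-2B tables were normalised separately, so levels were not tested across them. Many members had low counts: in the authors' deposited tables the mean normalized count was under 10 for 18 of 44 members in HOXA13 against eGFP, 23 in RWPE-1 deletion against control and 24 in C4-2B. For H2AC17 the authors' deposited tables give a mean normalized count of 0 in both RWPE-1 comparisons and 0.236 in C4-2B, and for H4C11 1.76 in HOXA13 against eGFP, 1.56 in RWPE-1 deletion against control and 0.679 in C4-2B. Both genes are listed at 1 TPM or more in many libraries, so what their TPM counts is uncertain.

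By type, the 4 linker H1 genes summed to 40.97 to 56.9 TPM in HOXA13, 53.2 to 62.6 in eGFP, 14.9 to 29.1 in deletion and 15.98 to 137 in control RWPE-1 libraries, and at 83.3 to 143 TPM in deletion and 35.5 to 87.8 in control C4-2B libraries. H1-2 alone makes up most of this sum. The 11 H2A genes summed to 43.98 to 52.2 TPM in HOXA13, 55.8 to 60.04 in eGFP, 14.2 to 21.8 in deletion and 11.96 to 48.6 in control RWPE-1 libraries, and at 31.8 to 48.6 TPM in deletion and 17.5 to 38.5 in control C4-2B libraries. The 13 matched H2B genes summed to 141 to 146 TPM in HOXA13, 170.2 to 172 in eGFP, 56.8 to 92.2 in deletion and 50.04 to 276 in control RWPE-1 libraries, and at 146 to 224 TPM in deletion and 77.7 to 156 in control C4-2B libraries. In each type the ranges of the RWPE-1 deletion and control libraries overlapped, and the upper end of the controls is control library 4 for H1, H2A, H2B and H3. The 7 matched H3 genes summed to 4.33 to 6.91 TPM in HOXA13, 5.16 to 6.71 in eGFP, 1.91 to 3.51 in deletion and 1.79 to 6.81 in control RWPE-1 libraries, and at 10.6 to 13.4 TPM in deletion and 4.94 to 11.2 in control C4-2B libraries. The 9 matched H4 genes summed to 20.9 to 26.1 TPM in HOXA13, 27.3 to 29.5 in eGFP, 14.5 to 24.2 in deletion and 12.5 to 25.9 in control RWPE-1 libraries, and at 20.2 to 30.5 TPM in deletion and 10.7 to 46.5 in control C4-2B libraries. Every eGFP library lay above every RWPE-1 deletion library in all 5 sums.

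**Figure D1:**
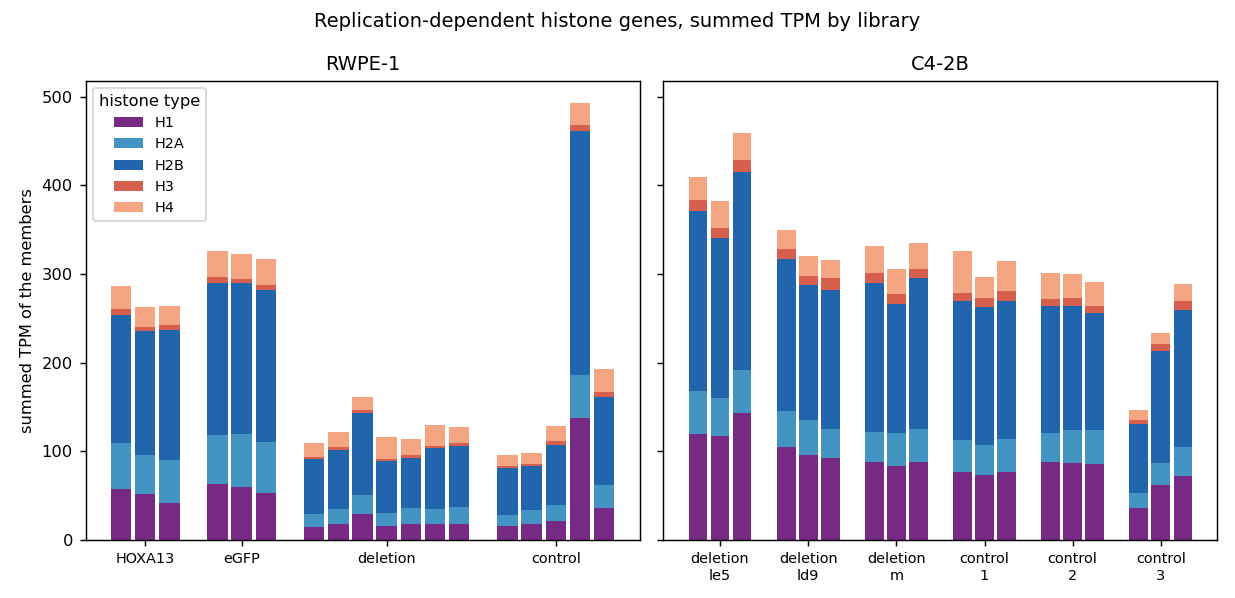
Summed TPM of the 44 matched histone genes in each library (bars, 1 per library, stacked by histone type), RWPE-1 on the left and C4-2B on the right. RWPE-1 control library 4 stands at 493 TPM, while the other controls lie at 96.0 to 193 TPM, and the 3 le5 libraries lie above the other C4-2B libraries.

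The labelled cell types were checked on marker genes. Basal epithelial markers (10 of 10) were at 1 TPM or more in every RWPE-1 library, with a sum of 11923 to 20708 TPM. In C4-2B that sum was 20.2 to 32.5 TPM. There 4 of 10 were at 1 TPM or more in every library, and 4 stayed under 1 TPM. KRT14 had 1.38 to 4.53 TPM and KRT5 0 to 0.14 TPM in C4-2B. Luminal markers (13 of 13) were at 1 TPM or more in every C4-2B library, with a sum of 2784 to 7563 TPM. In RWPE-1 their sum was 330 to 1274 TPM. Of the 13, 3 were at 1 TPM or more in every RWPE-1 library, and only TMPRSS2 stayed under 1 TPM. Of the fibroblast markers, 5 of 7 stayed under 1 TPM in every RWPE-1 library and 4 of 7 in every C4-2B library, and of 7 matched endothelial and immune markers 6 did in each line. HOXA13 had 684, 717 and 842 TPM in HOXA13 libraries, against 1.79 to 3.77 TPM in eGFP libraries; in the RWPE-1 deletion libraries it had 5.27 to 10.1 TPM, against 0.65 to 2.41 TPM in controls, and in C4-2B 0.78 to 1.16 TPM in deletion libraries, against 0.76 to 1.99 TPM in controls. Mitochondrially encoded genes took 10.8 to 16.6% of TPM in 35 libraries, and 28.4% in the first library of control line 3. Genes at 1 TPM or more numbered 13661 to 15256 per library.

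RWPE-1 control library 4 stood apart in its histone genes. H1-2 reached 135 TPM in control library 4 and 15.5, 16.7, 20.3 and 33.1 TPM in control libraries 1, 2, 3 and 5. H2BC12 reached 213 TPM in control library 4 and 38.1, 36.5, 42.05 and 64.6 TPM in control libraries 1, 2, 3 and 5. H2AC6 reached 30.1 TPM in control library 4 and 5.23, 4.12, 6.35 and 11.9 TPM in control libraries 1, 2, 3 and 5. The library was 4.36 to 6.32 times the mean of the other controls for these 3 genes. H2BC4, H2BC11, H2BC18, H2BC21 and H4C8 were also at least 2.67 times that mean, whereas H2AC17 (1.74 TPM, against a mean of 1.67) and H4C3 (3.93 TPM, against 3.43) were close to it. Of the 19 members at 1 TPM or more in 3 or more controls, 14 were highest in library 4, while over all 13915 such genes library 4 was the highest control for 23.7%. Ranked by how far library 4 lay above the other controls on the log2 scale, H1-2 was gene 8, H2BC12 gene 15, H2AC6 gene 24, H2BC4 gene 34 and H2BC11 gene 35 of the 13915, and 6 members lay among the first 100 genes. Among clustered histone genes outside the member list, H4C14, H4C15 and H4C16 also lay among those 100, and H4C14 and H4C15 are close copies whose reads cannot be told apart with certainty. Replacement histone genes, many of which are made outside S phase, were highest in library 4 in 1 of 11 cases. S phase genes were highest there in 7 of 23 cases and mitosis genes in 0 of 18, and the mean log2 level of the mitosis genes was 6.63 in library 4 and 6.26 to 7.04 in the other controls. The 14 genes include every H2B gene measured at this level, 8 in number, but H4C1, H4C3 and H4C11 of the H4 genes were not among them. The results of the 2 comparisons with these controls are also given below without library 4.

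**Figure D2:**
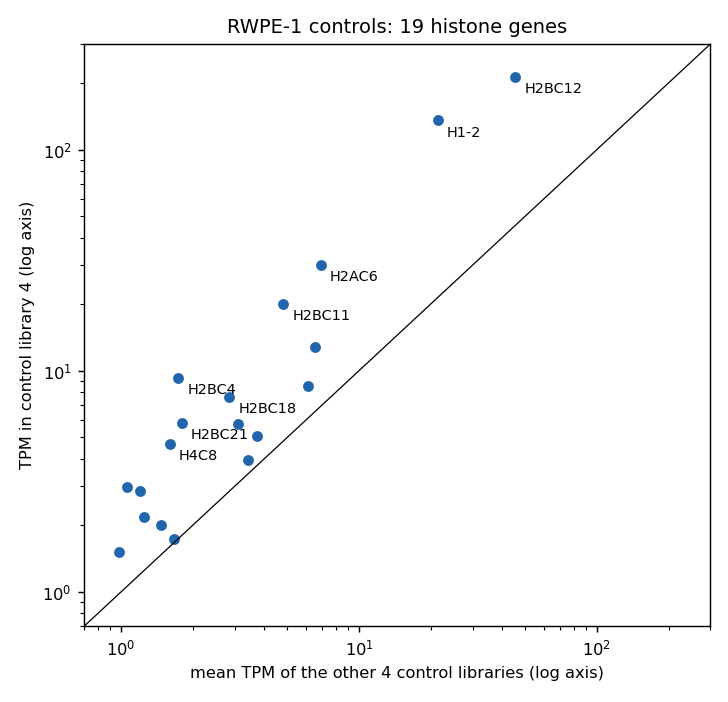
TPM of 19 histone genes in RWPE-1 control library 4 (vertical, log axis) against their mean in the other 4 control libraries (horizontal, log axis), 1 point a gene, with the line of equality. All 19 points lie above the line, from H2AC17 next to it to H1-2 at 135 TPM, against a mean of 21.4 TPM.

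No replication-dependent histone gene was called changed in RWPE-1 cells without the 7p15.2 risk region. Of the 44 matched members 19 passed the filter of 1 TPM in 5 or more libraries, and 0 of 19 were called in either direction by limma on log2(TPM + 1) at an adjusted p under 0.05, where 6.46% of all 14186 genes tested were called higher and 3.86% lower. At an unadjusted p under 0.05, 1 of the 19 passed, H4C1, and 3960 of all genes did. The members' median log2 difference was -0.29, that of all genes 0.054, and 16 of 19 lay below 0, as did 38.2% of all genes. Without control library 4 the median was 0.0030, with 0 of 20 called.

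By type, the linker histone gene H1-2 had 13.4 to 26.8 TPM (median 16.2) in the 7 deletion libraries, against 15.5, 16.7, 20.3, 135 and 33.1 TPM in the 5 controls. Its log2 difference was -0.81 (SE 0.43) with an adjusted p of 0.245, and -0.27 without control library 4. The ranges overlapped, with most deletion libraries at the level of control libraries 1 and 2. H2AC6, the most abundant H2A gene, had 5.02 to 11.3 TPM (median 6.32) in deletion libraries, against 5.23, 4.12, 6.35, 30.1 and 11.9 TPM in controls, a log2 difference of -0.41 (SE 0.37) that was 0.0079 without library 4. The other H2A genes were H2AC8 (0.026), H2AC11 (-0.14), H2AC13 (-0.29), H2AC17 (-0.34) and H2AC20 (-0.043) on the log2 scale. H2BC12 had 40.6 to 64.3 TPM (median 46.97) in deletion libraries, against 38.1, 36.5, 42.05, 213 and 64.6 TPM in controls; the log2 difference was -0.34 (SE 0.36), and 0.11 without library 4. Most deletion libraries were thus above control libraries 1, 2 and 3 and below libraries 4 and 5. The other H2B genes were H2BC4 (-0.33), H2BC5 (-0.29), H2BC11 (-0.75), H2BC15 (0.17), H2BC17 (-0.12), H2BC18 (-0.52) and H2BC21 (-0.36). H2BC11 was the lowest of these, with 1.43 to 4.73 TPM (median 3.03) in deletion libraries, against 3.53, 2.72, 6.26, 20.03 and 6.71 TPM in controls, and its adjusted p was 0.205. No H3 gene passed the filter. Among H4 genes, H4C11 had 4.21 to 7.42 TPM (median 5.26) in deletion libraries, against 5.6, 3.01, 4.13, 8.52 and 11.7 TPM in controls, a log2 difference of -0.11 (SE 0.25). H4C1 had the highest difference of any member, 0.56 (SE 0.25), with 3.02 to 9.9 TPM (median 6.15) in deletion libraries, against 2.45, 2.76, 4.01, 5.07 and 5.62 TPM in controls and an adjusted p of 0.159. H4C3 (-0.14) and H4C8 (-0.054) lay closer to 0. With control library 4 left out the remaining H2A genes were H2AC8 (0.22), H2AC11 (-0.077), H2AC13 (-0.18), H2AC17 (-0.32) and H2AC20 (0.11), the remaining H2B genes H2BC4 (0.059), H2BC5 (-0.084), H2BC11 (-0.37), H2BC15 (0.25), H2BC17 (0.062), H2BC18 (-0.27) and H2BC21 (-0.10) and the H4 genes H4C1 (0.64), H4C3 (-0.10), H4C5 (0.16), H4C8 (0.18) and H4C11 (-0.0019). Of these, H4C1 had an adjusted p of 0.144 in limma.

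The authors' deposited table for this comparison, made from counts with DESeq2, gave an adjusted p for 27 members and called 0 of them, where 7.98% of its 17985 genes were higher and 9.37% lower. In the authors' deposited table H1-2 (log2 -0.73) and H2BC12 (log2 -0.51) have no p-value. For related gene lists the limma fit gave the counts below, where it called 6.46% of all genes higher and 3.86% lower. Of 23 genes of histone transcription and 3′ end processing 1 rose (CPSF2, a cleavage factor subunit, 0.20, adjusted p = 0.03703) and 1 fell (LSM11, a subunit of the U7 particle that cuts histone mRNA, -0.34, adjusted p = 0.0397). Of 16 histone chaperone genes SUPT16H rose (0.23, adjusted p = 0.00969), and of 11 replacement histone genes MACROH2A1 fell (-0.55, adjusted p = 9.76e-05). Of 23 S phase genes CDC6 (0.30, adjusted p = 0.00904) and CDC45 (0.59, adjusted p = 0.019) rose, which act in loading and activating the replicative helicase, and of 18 mitosis genes the kinesin gene KIF20A fell (-0.42, adjusted p = 0.0363). Of 18 non-histone neighbours at 6p22, limma called 0 and passed 3 at an unadjusted p under 0.05. Of the non-histone neighbours at 1q21, ANP32E (0.25, adjusted p = 0.0181), BOLA1 (0.30, adjusted p = 0.0243) and PLEKHO1 (0.50, adjusted p = 0.0278) rose.

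HOXA13 overexpression gave lower values for several abundant histone genes, none of which passed the test over all genes. Here 34 members passed the filter of 1 TPM in 3 libraries, and limma called 0 of 34 in either direction; it called 0.0135% of 14814 genes higher and 0% lower. At an unadjusted p under 0.05 it passed 7 members and 2002 genes (13.5% of genes). The HOXA13 and eGFP libraries did not overlap for 7 of 34 members, all lower in HOXA13 cells, where 8.68% of all genes were lower without overlap, and for 0 of 34 they were higher, where 12.4% of all genes were. The members' median log2 difference was -0.15, that of all genes 0.036.

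H1-2 had 50.9, 47.6 and 38.1 TPM in HOXA13 libraries, against 58.9, 56.2 and 48.5 TPM in eGFP libraries, a log2 difference of -0.26 (SE 0.13), and H1-4 differed by -0.011. H2AC6 had 13.3, 13.5 and 17.3 TPM in HOXA13 libraries, against 22.9, 20.5 and 21.7 TPM in eGFP libraries, with a log2 difference of -0.54 (SE 0.12), an unadjusted limma p of 0.00264 and an adjusted p of 0.244. Its highest HOXA13 library was below the lowest eGFP library. The other H2A genes were H2AC8 (0.032), H2AC11 (0.00029), H2AC12 (0.63), H2AC13 (0.10), H2AC14 (-0.10), H2AC15 (0.015), H2AC16 (-0.23), H2AC17 (-0.20) and H2AC20 (-0.46). H2BC12 had 74.3, 68.5 and 64.2 TPM in HOXA13 libraries, against 82.98, 92.05 and 80.9 TPM in eGFP libraries, a log2 difference of -0.30 (SE 0.083) with an adjusted p of 0.259, again without overlap. H2BC11 had 9.86, 8.98 and 6.91 TPM in HOXA13 libraries, against 10.2, 11.9 and 12.6 TPM in eGFP libraries, a difference of -0.40 (SE 0.15). H2BC14 (-0.62) and H2BC17 (-0.32) were the other H2B genes whose libraries did not overlap. The remaining H2B genes were H2BC3 (-0.37), H2BC4 (-0.12), H2BC5 (-0.074), H2BC6 (-0.010), H2BC9 (-0.12), H2BC13 (0.22), H2BC15 (0.53), H2BC18 (-0.27) and H2BC21 (-0.27). H3C10, the most abundant H3 gene, had 2.53, 1.75 and 2.29 TPM in HOXA13 libraries, against 2.29, 2.25 and 3.04 TPM in eGFP libraries, a difference of -0.15 (SE 0.17), and H3C1 (-0.16) and H3C12 (-0.030) also overlapped. H4C11 had 9.08, 6.94 and 9.06 TPM in HOXA13 libraries, against 13.7, 12.2 and 9.53 TPM in eGFP libraries, a difference of -0.45 (SE 0.16), while the authors' deposited table gives it a log2 difference of 0.00304 on its low count. H4C8 had 2.16, 1.99 and 3.02 TPM in HOXA13 libraries, against 3.5, 3.25 and 4.79 TPM in eGFP libraries, a difference of -0.51 (SE 0.19). For both H4 genes the TPM of every HOXA13 library was below that of every eGFP library. The other H4 genes were H4C1 (0.26), H4C3 (0.24), H4C4 (-0.41) and H4C5 (-0.40). The summed H2B level was 141 to 146 TPM in HOXA13 libraries and 170.2 to 172 TPM in eGFP libraries.

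The authors' deposited table gave an adjusted p for 12 members and called 1 of them, H2AC6, lower, at -0.51 (SE 0.10, adjusted p = 7.53e-05) on the log2 scale; that table called 9.64% of its 12329 genes lower. In the same authors' deposited table H2BC12 stood at 0.011 (adjusted p = 0.967), where the TPM gave -0.30, so the direction for H2BC12 rests on the TPM. Replacement histone genes (0 of 11), chaperone genes (0 of 16), S phase genes (0 of 23) and mitosis genes (0 of 18) had no call by limma either, with medians of 0.0016, -0.020, 0.030 and 0.0021; at an unadjusted p under 0.05 it passed 3, 2, 2 and 2 of them. Of 7 tested luminal markers limma called 0, with 1 at an unadjusted p under 0.05; their part in the histone values was not tested.

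**Figure D3:**
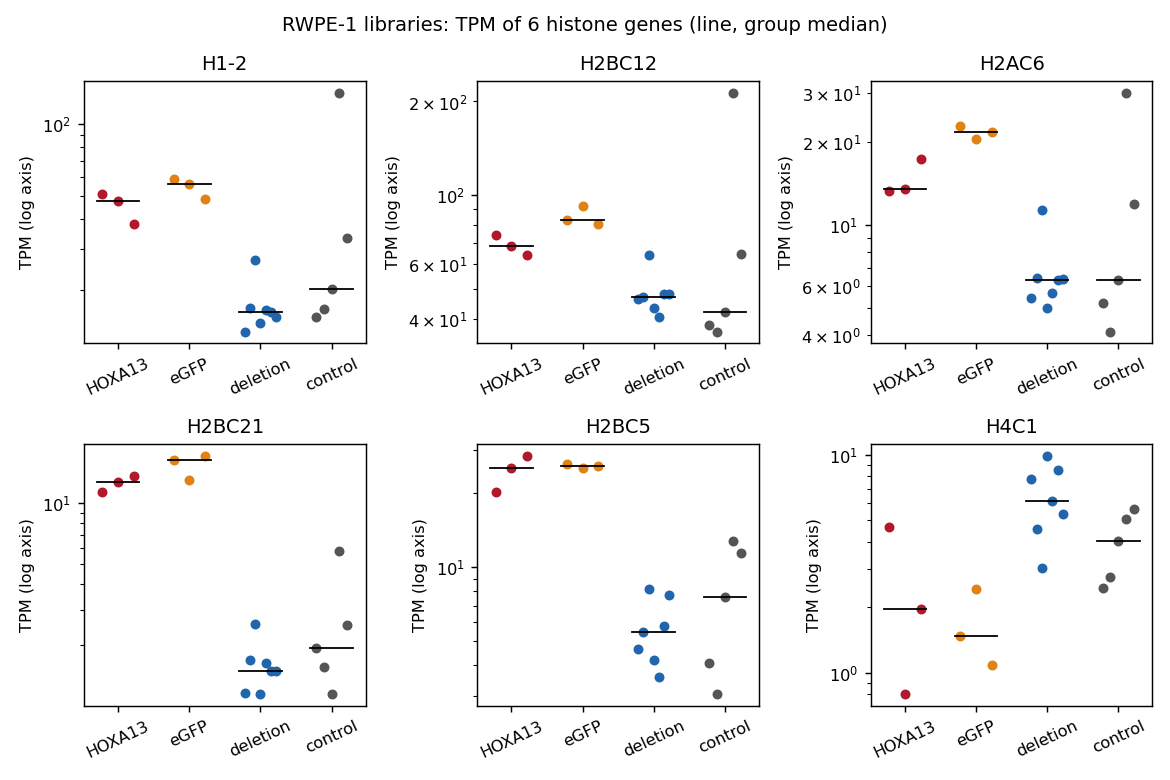
TPM (log axis) of 6 histone genes in the RWPE-1 libraries, 1 point a library, grouped as HOXA13, eGFP, deletion and control, with group medians as lines. Control library 4 lies above the other controls for H1-2, H2BC12, H2AC6 and H2BC21, and H2AC6 is at 13.3 to 17.3 TPM in HOXA13 libraries and 20.5 to 22.9 TPM in eGFP libraries.

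In C4-2B, where the line is the replicate, deletion lines had higher values than control lines for most measured histone genes, and none passed the test. Of 23 members whose line means passed the filter, limma called 0 of 23, and it called 0% of 14820 genes higher and 0% lower. At an unadjusted p under 0.05, 6 members and 529 genes passed. The line means did not overlap for 4 of 23 members, all higher in deletion lines, where 6.86% of all genes were higher without overlap; they were lower for 0 of 23, where 2.68% of all genes were. The members' median log2 difference was 0.31, that of all genes 0.068, and 21 of 23 lay above 0, as did 66.3% of all genes. Without control line 3 the median of the members was 0.13 and that of all genes -0.031.

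The linker gene H1-2 averaged 98.6 ± 20.98 TPM (SD, n = 3) in deletion lines and 68.6 ± 14.2 TPM (SD, n = 3) in control lines, with a log2 difference of 0.53 (SE 0.21). H1-2 stood at 115, 111 and 138 TPM in le5, 101, 92.2 and 88.7 in ld9 and 81.2, 78.4 and 81.5 in m, against 71.97, 69.1 and 72.2 TPM in control line 1, 82.5, 80.3 and 81.5 in control line 2 and 33.6, 58.8 and 67.8 in control line 3. Clone le5 was the highest line and clone m lay among the control lines. H1-4 differed by 0.29. H2AC6 averaged 16.9 ± 4.78 TPM (SD, n = 3) in deletion lines and 11.9 ± 2.16 TPM (SD, n = 3) in control lines, a difference of 0.46 (SE 0.23). H2AC6 stood at 21.3, 20.3 and 23 TPM in le5, 18.8, 16.5 and 15.8 in ld9 and 12.1, 12.3 and 11.5 in m, against 13.1, 12.6 and 15.9 TPM in control line 1, 10.8, 12.8 and 13.04 in control line 2 and 6.46, 9.81 and 12.5 in control line 3. The order le5, ld9 and then m with the controls was the same as for H1-2. H2AC15 (0.48) was higher without overlap of the line means, and the other H2A genes were H2AC11 (0.24), H2AC13 (0.036), H2AC17 (0.35) and H2AC20 (-0.23). H2BC12 averaged 110.1 ± 11.7 TPM (SD, n = 3) in deletion lines and 89.9 ± 12.7 TPM (SD, n = 3) in control lines, a difference of 0.31 (SE 0.15). H2BC12 stood at 121, 108 and 138 TPM in le5, 102, 96.5 and 99.6 in ld9 and 114, 98.6 and 114 in m, against 101, 103 and 104 TPM in control line 1, 93.9, 89.9 and 82.9 in control line 2 and 51.4, 83.1 and 98.9 in control line 3. The mean was highest in le5 and lowest in control line 3, whose library 1 had the high mitochondrial share. H2BC21, an H2B gene outside the chromosome 6 cluster, averaged 8.74 ± 3.07 TPM (SD, n = 3) in deletion lines and 4.85 ± 0.479 TPM (SD, n = 3) in control lines, a difference of 0.70 (SE 0.24). H2BC21 stood at 11.04, 11.5 and 13.03 TPM in le5, 8.95, 8.73 and 8.26 in ld9 and 6.02, 5.7 and 5.42 in m, against 4, 4.05 and 5.24 TPM in control line 1, 4.37, 4.9 and 4.94 in control line 2 and 4.33, 5.14 and 6.64 in control line 3. Clones le5 and ld9 were above every control library, and m overlapped the control libraries. H2BC11 (0.60) was also higher without overlap of line means, and the remaining H2B genes were H2BC4 (0.36), H2BC5 (0.25), H2BC13 (0.052), H2BC15 (0.31), H2BC17 (0.14) and H2BC18 (0.30). H3C10 averaged 9.31 ± 0.872 TPM (SD, n = 3) in deletion lines and 6.63 ± 0.887 TPM (SD, n = 3) in control lines, a difference of 0.45 (SE 0.15), and H3C1 differed by 0.10. H3C10 stood at 10.1, 9.36 and 11.3 TPM in le5, 9.95, 8.45 and 8.82 in ld9 and 8.97, 8.93 and 7.82 in m, against 7.48, 7.34 and 7.95 TPM in control line 1, 6.17, 5.6 and 5.75 in control line 2 and 4.49, 6.01 and 8.88 in control line 3. Every deletion line mean was above every control line mean, while single libraries overlapped. H4C8 (0.42), H4C1 (0.48) and H4C11 (0.35) had positive differences. H4C3 had the lowest, -0.72 (SE 0.29). H4C3 stood at 3.38, 4.77 and 1.73 TPM in le5, 4.1, 2.28 and 2.42 in ld9 and 4.54, 5.69 and 7.16 in m, against 15.7, 10.1 and 4.17 TPM in control line 1, 7.3, 10.5 and 5.67 in control line 2 and 4.47, 3.94 and 5.55 in control line 3. Libraries of 1 line differed several-fold in H4C3, control line 1 most. All 23 adjusted p-values were 0.993 in limma at line level.

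The authors' deposited table for C4-2B gave an adjusted p for 24 members, called 5 of them higher, where 4.34% of its 17075 genes were, and 1 lower, where 4.22% were. The 5 were H1-2 at 0.48 (SE 0.12, adjusted p = 0.002798), H2AC6 at 0.46 (SE 0.13, adjusted p = 0.01296), H2BC21 at 0.72 (SE 0.18, adjusted p = 0.00167), H3C10 at 0.39 (SE 0.094, adjusted p = 0.00132) and H4C8 at 0.57 (SE 0.17, adjusted p = 0.0177) in the authors' deposited table. The lower one was H4C3 at -1.02 (SE 0.26, adjusted p = 0.00272), again from the authors' deposited table. With single libraries in place of lines as replicates, 9 against 9, limma called 2 of 23 members higher (H2BC21, adjusted p = 0.0205, and H3C10, adjusted p = 0.0325), where 1.08% of all genes were called higher. Libraries of 1 line are not independent replicates of the deletion, so such a test overstates the sample size and can give p-values that are too small. It called 213 of 14820 genes, where the line-level fit called 0. The columns of the authors' deposited table do not show which unit served as replicate there, so its calls are not line-level results. In the line-level fit 18 of 18 non-histone neighbours at 6p22 had positive differences too, with a median of 0.24, and 0 of 18 were called; at an unadjusted p under 0.05 limma passed 0. Without control line 3 the neighbours' median was 0.012, with 10 of 19 above 0. Chaperone, S phase and mitosis genes had medians of -0.027, -0.0020 and -0.011.

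The 6 C4-2B lines differed from one another in many of these genes. A limma F test over the 6 lines, on 29 members and 16225 genes, called 13 of 29 members and 33.6% of all genes at an adjusted p under 0.05. Without library 1 of control line 3 it called 13 of 31 members and 8208 of 16781 genes, a larger share of all genes than of the members. The 13 were H1-2, H2AC6, H2AC17, H2BC4, H2BC5, H2BC12, H2BC18, H2BC21, H3C10, H4C1, H4C3, H4C8 and H4C11. Over 25 alternatives in pseudocount, filter, scale, block or library left out, 9 to 14 members were called, the fewest with no filter. H2BC12 was not called in 20 of the 25, and the call was also lost for H4C3 in 13, H4C1 in 10, H2BC18 in 6, H4C11 in 3 and H2AC17 in 1. The calls of H1-2, H2AC6, H2BC4, H2BC5, H2BC21, H3C10 and H4C8 held under all 25. The lowest adjusted p was that of H2BC21 (2.34e-05), with 1.25 between the highest and the lowest line on the log2 scale. Clone le5 was the highest line for 15 of 29 members, while over all genes it was the highest for 12.02%. Control line 3 was the lowest line for 19 of 29 members and for 58.1% of all genes.

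Per library, the called members not yet given were as follows. H2AC17 stood at 6.43, 7.44 and 7.35 TPM in le5, 7.45, 7.87 and 6.37 in ld9 and 7.7, 8.61 and 9.84 in m, against 6.19, 5.2 and 8.86 TPM in control line 1, 7.27, 8.07 and 7.39 in control line 2 and 2.01, 4.49 and 5.3 in control line 3. H2BC4 stood at 12.9, 13.6 and 12.6 TPM in le5, 10.6, 6.81 and 8.65 in ld9 and 9.27, 7.55 and 8.81 in m, against 7.11, 9.85 and 8.87 TPM in control line 1, 6.21, 7.1 and 8.57 in control line 2 and 5.66, 7.07 and 7.4 in control line 3. Clone m led for H2AC17 and clone le5 for H2BC4, an H2B gene that shares its promoter region with H2AC6. H2BC5 stood at 21.5, 20.1 and 23.7 TPM in le5, 15.01, 16.3 and 18.2 in ld9 and 15, 14.2 and 13.5 in m, against 17.4, 17.1 and 16.9 TPM in control line 1, 15.1, 16.03 and 14.8 in control line 2 and 8.56, 12.5 and 12.9 in control line 3. H2BC18 stood at 3.02, 3.26 and 3.45 TPM in le5, 2.58, 2.4 and 2.05 in ld9 and 2.07, 1.7 and 2.9 in m, against 2.03, 1.59 and 1.34 TPM in control line 1, 2.07, 1.26 and 1.86 in control line 2 and 2.03, 2.6 and 2.53 in control line 3. H2BC5 and H2BC18 were both highest in le5. H4C1 stood at 5.29, 5.39 and 7.75 TPM in le5, 3.15, 6.12 and 3.61 in ld9 and 14.6, 10.7 and 10 in m, against 7.97, 2.53 and 13.8 TPM in control line 1, 11.9, 5.89 and 9.3 in control line 2 and 0, 0.81 and 5.22 in control line 3. H4C8 stood at 9.94, 10.9 and 12.7 TPM in le5, 9.71, 7.89 and 7.01 in ld9 and 5.78, 4.33 and 5.78 in m, against 10.2, 4.69 and 5.99 TPM in control line 1, 5.33, 5.69 and 5.52 in control line 2 and 3.63, 5.38 and 5.8 in control line 3. H4C11 stood at 5.76, 5.51 and 5.49 TPM in le5, 2.57, 4.17 and 5.11 in ld9 and 3.98, 5.41 and 3.77 in m, against 9.87, 4.6 and 7.52 TPM in control line 1, 2.78, 3.92 and 4.61 in control line 2 and 1.92, 0 and 2.44 in control line 3. Of these H4 genes, H4C8 followed the order of H1-2 and H2AC6, with le5 and ld9 above every control line mean, whereas H4C1 was highest in m and H4C11 in control line 1. The members not called were H1-4 (0.79), H1-5 (0.56), H2AC11 (0.64), H2AC12 (0.92), H2AC13 (0.48), H2AC14 (0.78), H2AC15 (0.84), H2AC16 (0.28), H2AC20 (0.85), H2BC11 (1.27), H2BC13 (0.64), H2BC15 (0.75), H2BC17 (0.89), H3C1 (0.56), H3C12 (0.64) and H4C5 (0.63) by the gap between highest and lowest line on the log2 scale.

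Genes around the cluster and of related lists were called between lines as well. The counts below stand beside 33.6% of all genes called by the same F test. Of 19 non-histone neighbours at 6p22, 17 were called, led by ZNF165, HFE, HMGN4 and BTN2A1, and their mean log2 level was 2.14 to 2.38 in the libraries of control line 3 and 2.89 to 3.12 in those of the other 5 lines. At 1q21 the neighbours TXNIP, ANP32E and OTUD7B were called. Of 11 replacement histone genes 7 were called, with MACROH2A2, H2AJ, H2AZ1 and H2AZ2 at the lowest p; of 23 genes of histone transcription and processing 4 were called, SLBP, CCNE2, LSM11 and CDK2. Of 16 chaperone genes 6 were called (NAP1L1, NASP, CABIN1 and ASF1A first), of 23 S phase genes 10 (MCM3, SLBP, MCM4 and CCNE2 first) and of 18 mitosis genes 9 (CDK1, CCNB2, NUSAP1 and CCNB1 first). The mean log2 level of S phase genes was 6.16 to 6.26 in le5, the line with the highest histone sum, and 6.48 to 6.50 in control line 1. In control line 3, the line with the lowest histone sum, it was 5.86 to 6.35, with library 1 the lowest. It was 6.20 to 6.32 in ld9, 6.41 to 6.45 in m and 6.30 to 6.32 in control line 2. What part the genes of these lists have in the histone values was not tested.

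**Figure D4:**
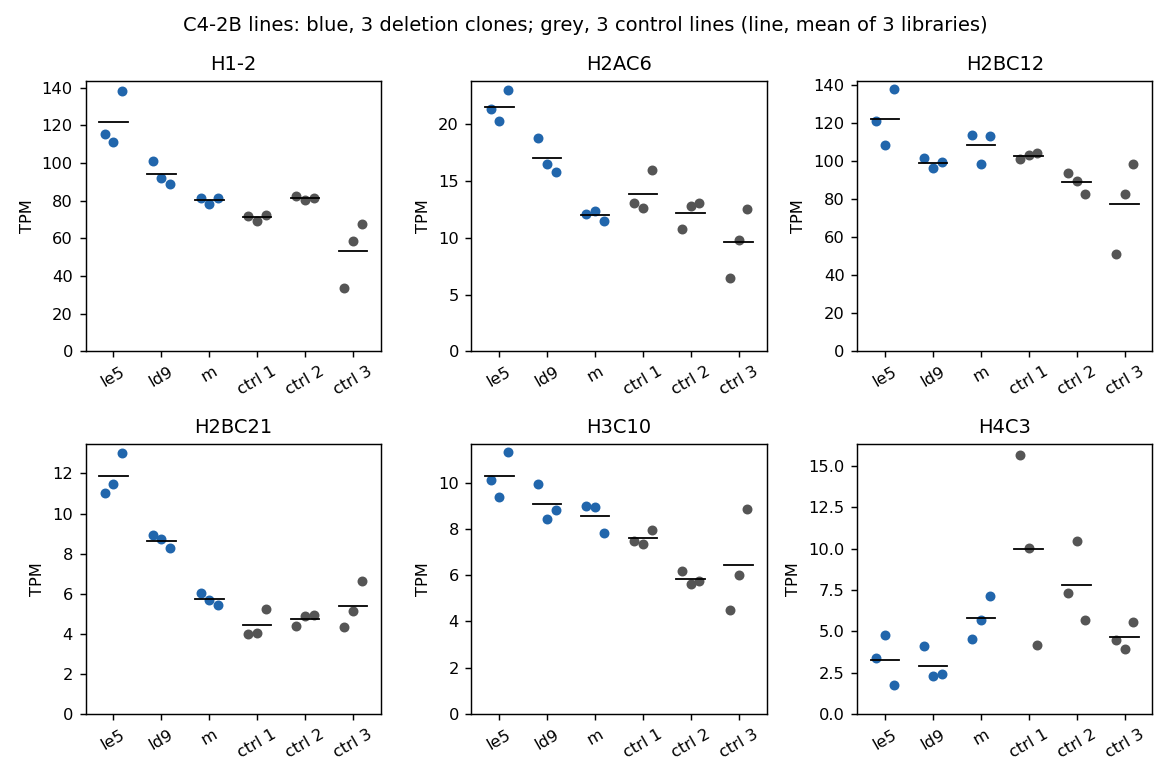
TPM of 6 histone genes in the C4-2B libraries, 1 point a library, by line, with deletion clones le5, ld9 and m left of control lines 1, 2 and 3 and the mean of 3 libraries as a line. H2BC21 steps down over le5 (mean 11.8 TPM), ld9 (8.65 TPM) and m (5.71 TPM), while H4C3 runs higher in control line 1 (9.96 TPM) than in any deletion clone.

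More histone genes were called between eGFP-transfected, sorted RWPE-1 cells and the genome editing controls, which are wild-type cells, than in any comparison above. The same holds over all genes, of which limma called 7094 of 15066 here. Nearly all of the called histone genes were higher in eGFP cells. Transfection, sorting, the treatment named in the labels and the experiment itself differ together between these groups and cannot be told apart. Of 29 members that passed the filter, limma called 15 of 29 higher in eGFP cells, where 24.4% of 15066 genes were higher, and 1 lower, where 22.7% were. The members' median log2 difference was 0.88, that of all genes 0.015. Of the 29, 10 passed the filter with fewer than 3 controls at 1 TPM, and so mainly through the eGFP libraries, and 8 of these 10 were among the calls; 3 of them (H2BC6, H2BC14 and H4C5) had no control at 1 TPM. With no filter, 18 of 43 members were called higher, where 15.8% of genes were, and 0 lower, where 10.2% were; 12 of the 18 were among the first 16. Without control library 4, 21 of 27 were called higher and 1 lower, where 3673 of 14868 genes were higher and 3224 lower. Without eGFP library 3, 10 of 30 were called, all of them higher, where 2975 of 15463 genes were higher and 2926 lower. Over 16 alternatives in pseudocount, filter, scale, block, libraries fitted or library left out, the calls of H1-4, H2AC8, H2AC15, H2AC17, H2BC5, H2BC6, H2BC9, H2BC14, H2BC21 and H4C5 held under all. The call was lost for H2BC4 in 7, H2BC18 in 7, H3C10 in 4, H4C1 in 4, H2BC17 in 2 and H4C4 in 2 of them.

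Of the linker genes, H1-4 rose, with 2.34, 2.4 and 3.41 TPM in eGFP libraries, against 0.14, 0.5, 0.44, 0.42 and 1.23 TPM in genome editing controls; the log2 difference was 1.29 (SE 0.22) with an adjusted p of 0.00157. H1-2 was not called, with 58.9, 56.2 and 48.5 TPM in eGFP libraries, against 15.5, 16.7, 20.3, 135 and 33.1 TPM in genome editing controls; the log2 difference was 0.83 (SE 0.63) with an adjusted p of 0.303. Without control library 4 the difference of H1-2 was 1.37 with an adjusted p of 0.00318 in limma. Among H2A genes, H2AC15 had 6.28, 4.83 and 7.15 TPM in eGFP libraries, against 0.23, 0.75, 1.05, 0.8 and 1.7 TPM in genome editing controls; the log2 difference was 1.93 (SE 0.24) with an adjusted p of 0.000354. H2AC17 had 5.2, 7.72 and 6.79 TPM in eGFP libraries, against 0.63, 1.09, 2.54, 1.74 and 2.42 TPM in genome editing controls; the log2 difference was 1.54 (SE 0.27) with an adjusted p of 0.00187. H2AC8 had 6.8, 5.55 and 4.43 TPM in eGFP libraries, against 0.4, 1.07, 0.96, 2.97 and 1.8 TPM in genome editing controls; the log2 difference was 1.51 (SE 0.31) with an adjusted p of 0.004196. In these 3 genes every eGFP library was above every control. H2AC6 was not called (22.9, 20.5 and 21.7 TPM in eGFP libraries; 1.2 (SE 0.52), adjusted p = 0.0897) and was called without control library 4 (1.61, adjusted p = 0.00332 in limma). The other H2A genes, not called, were H2AC11 (-0.16), H2AC13 (0.95), H2AC16 (0.25) and H2AC20 (0.67). Of these limma called H2AC13 (1.05, adjusted p = 0.0482) without control library 4. The TPM of H2AC17 stands against a mean normalized count of 0 in the authors' deposited tables, as given above.

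Of the H2B genes, H2BC21 had the highest difference of any member, with 16.3, 12.9 and 17.1 TPM in eGFP libraries, against 1.95, 1.57, 1.15, 5.8 and 2.51 TPM in genome editing controls; the log2 difference was 2.31 (SE 0.34) with an adjusted p of 0.000733. H2BC5 had 26.2, 25.4 and 25.8 TPM in eGFP libraries, against 4.09, 3.05, 7.58, 12.8 and 11.4 TPM in genome editing controls; the log2 difference was 1.77 (SE 0.39) with an adjusted p of 0.00604. Neither gene overlapped between the groups. Both were named above as giving polyadenylated transcripts, and so was H2AC6, which overlapped and was not called (1.2, adjusted p = 0.0897 in limma). A link to polyadenylation was not tested. H2BC14 had 2.32, 3.41 and 4.49 TPM in eGFP libraries, against 0, 0.2, 0.46, 0.22 and 0.79 TPM in genome editing controls; the log2 difference was 1.72 (SE 0.23) with an adjusted p of 0.000464. H2BC4 had 9.88, 7.18 and 9.84 TPM in eGFP libraries, against 1.14, 0.97, 2.44, 9.31 and 2.4 TPM in genome editing controls; the log2 difference was 1.51 (SE 0.49) with an adjusted p of 0.0312. Control library 4 lay within the eGFP range for H2BC4, where the groups overlapped. H2BC17 had 4.95, 3.87 and 4.14 TPM in eGFP libraries, against 0.57, 1.11, 0.5, 2.85 and 2.6 TPM in genome editing controls; the log2 difference was 1.19 (SE 0.34) with an adjusted p of 0.0189. H2BC18 had 9.44, 6.92 and 8.77 TPM in eGFP libraries, against 1.76, 1.61, 3.26, 7.62 and 4.78 TPM in genome editing controls; the log2 difference was 1.104 (SE 0.38) with an adjusted p of 0.0392. The groups overlapped for H2BC18, again through control library 4, and not for H2BC17. H2BC6 had 2.1, 1.48 and 1.38 TPM in eGFP libraries, against 0.38, 0.16, 0.21, 0.98 and 0.58 TPM in genome editing controls; the log2 difference was 0.88 (SE 0.20) with an adjusted p of 0.00697. H2BC9 had 1.66, 1.84 and 1.53 TPM in eGFP libraries, against 0.39, 0.54, 0.61, 1.1 and 0.88 TPM in genome editing controls; the log2 difference was 0.67 (SE 0.16) with an adjusted p of 0.00872. These last 2 genes were at low levels in both groups. H2BC12, the most abundant, was not called, with 82.98, 92.05 and 80.9 TPM in eGFP libraries, against 38.1, 36.5, 42.05, 213 and 64.6 TPM in genome editing controls; the log2 difference was 0.48 (SE 0.52) with an adjusted p of 0.473. Without control library 4 its difference was 0.93 with an adjusted p of 0.00589 in limma. H2BC11 (0.79) and H2BC15 (0.36) were not called. Limma called H2BC11 (1.18, adjusted p = 0.00931) without control library 4, and the differences of the called genes that overlapped were then H2BC4 (1.90, adjusted p = 0.000805) and H2BC18 (1.35, adjusted p = 0.00713).

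Of the H3 genes, H3C10 was called higher, with 2.29, 2.25 and 3.04 TPM in eGFP libraries, against 0.64, 0.52, 0.52, 1.85 and 1.61 TPM in genome editing controls; the log2 difference was 0.85 (SE 0.25) with an adjusted p of 0.0222; without eGFP library 1, 2 or 3, and with no filter, it was not called. H3C1 (0.24) was not called. Of the H4 genes, H4C5 had 3.39, 2.72 and 4.35 TPM in eGFP libraries, against 0.23, 0.99, 0.91, 0.77 and 0.66 TPM in genome editing controls; the log2 difference was 1.39 (SE 0.19) with an adjusted p of 0.000585. H4C4 had 2.47, 2.42 and 3.28 TPM in eGFP libraries, against 0.49, 0.39, 0.89, 1.69 and 1.53 TPM in genome editing controls; the log2 difference was 0.94 (SE 0.24) with an adjusted p of 0.0126. Every eGFP library was above every control for both genes. H4C1 was the only member called lower, with 1.48, 2.42 and 1.09 TPM in eGFP libraries, against 2.45, 2.76, 4.01, 5.07 and 5.62 TPM in genome editing controls; the log2 difference was -0.89 (SE 0.26) with an adjusted p of 0.0207. It was not called without eGFP library 1, without eGFP library 3, with no filter or with the replicate block. H4C11, the most abundant H4 gene by TPM, had 13.7, 12.2 and 9.53 TPM in eGFP libraries, against 5.6, 3.01, 4.13, 8.52 and 11.7 TPM in genome editing controls; the log2 difference was 0.86 (SE 0.35) with an adjusted p of 0.0714. It was not called, and nor were H4C3 (0.10) and H4C8 (0.71). H4C11 was called with the replicate block, with all 18 RWPE-1 libraries fitted together and without control library 5. The replicate block left control libraries 4 and 5, which have no eGFP library of the same number, out of that difference. Limma called H4C8 (0.94, adjusted p = 0.0218) without control library 4.

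Of 18 mitosis genes 16 fell in eGFP cells, where 22.7% of all genes were lower, and 0 rose. Their median was -1.09, and BUB1B (-1.91, adjusted p = 8.43e-05), KIF20A (-1.64, adjusted p = 0.000136), KIF11 (-1.31, adjusted p = 0.000194) and CDK1 (-1.53, adjusted p = 0.000236) had the lowest p. Of 23 S phase genes 8 fell, among them POLA1 (-0.78, adjusted p = 0.000227), RRM1 (-0.64, adjusted p = 0.00133) and PRIM1 (-0.45, adjusted p = 0.00175), and 3 rose, CDT1 (0.70, adjusted p = 0.00108), E2F1 (0.47, adjusted p = 0.00668) and MCM7 (0.20, adjusted p = 0.0474). Of 16 chaperone genes 7 fell, led by ATRX (-0.74, adjusted p = 0.000442) and SUPT16H (-0.52, adjusted p = 0.000615), and DAXX, a partner of ATRX, rose (0.99, adjusted p = 7.31e-05). Of 23 genes of histone transcription and processing 9 rose, such as SRRT (0.68, adjusted p = 0.001601), LSM10 (0.72, adjusted p = 0.00162) and ZNF473 (0.61, adjusted p = 0.00369), and 5 fell, such as NCBP1 (-0.76, adjusted p = 0.000279) and CPSF3 (-0.45, adjusted p = 0.00613).

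Of 11 replacement histone genes 5 rose, led by the linker variant H1-10 (1.60, adjusted p = 6.50e-06), and 4 fell, H2AZ2 (-0.83, adjusted p = 0.000338), H3-3A (-0.77, adjusted p = 0.000896), H2AZ1 (-0.62, adjusted p = 0.0177) and CENPA (-0.87, adjusted p = 0.01995). Of 8 other clustered histone genes 3 rose: H2AC25 (2.49, adjusted p = 2.05e-05), H2BC26 (1.36, adjusted p = 0.000139) and H2AC7 (1.73, adjusted p = 0.00616). Of 19 non-histone neighbours at 6p22, 8 rose and 0 fell. Non-histone neighbours at 1q21 were called in both directions, such as TXNIP (1.31, adjusted p = 0.00391) higher and RBM8A (-0.39, adjusted p = 0.00301) lower. The 2 fibroblast markers tested of 7 rose as well, and 5 of the 7 stayed under 1 TPM in every RWPE-1 library. The part of these lists in the histone values was not tested.

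**Figure D5:**
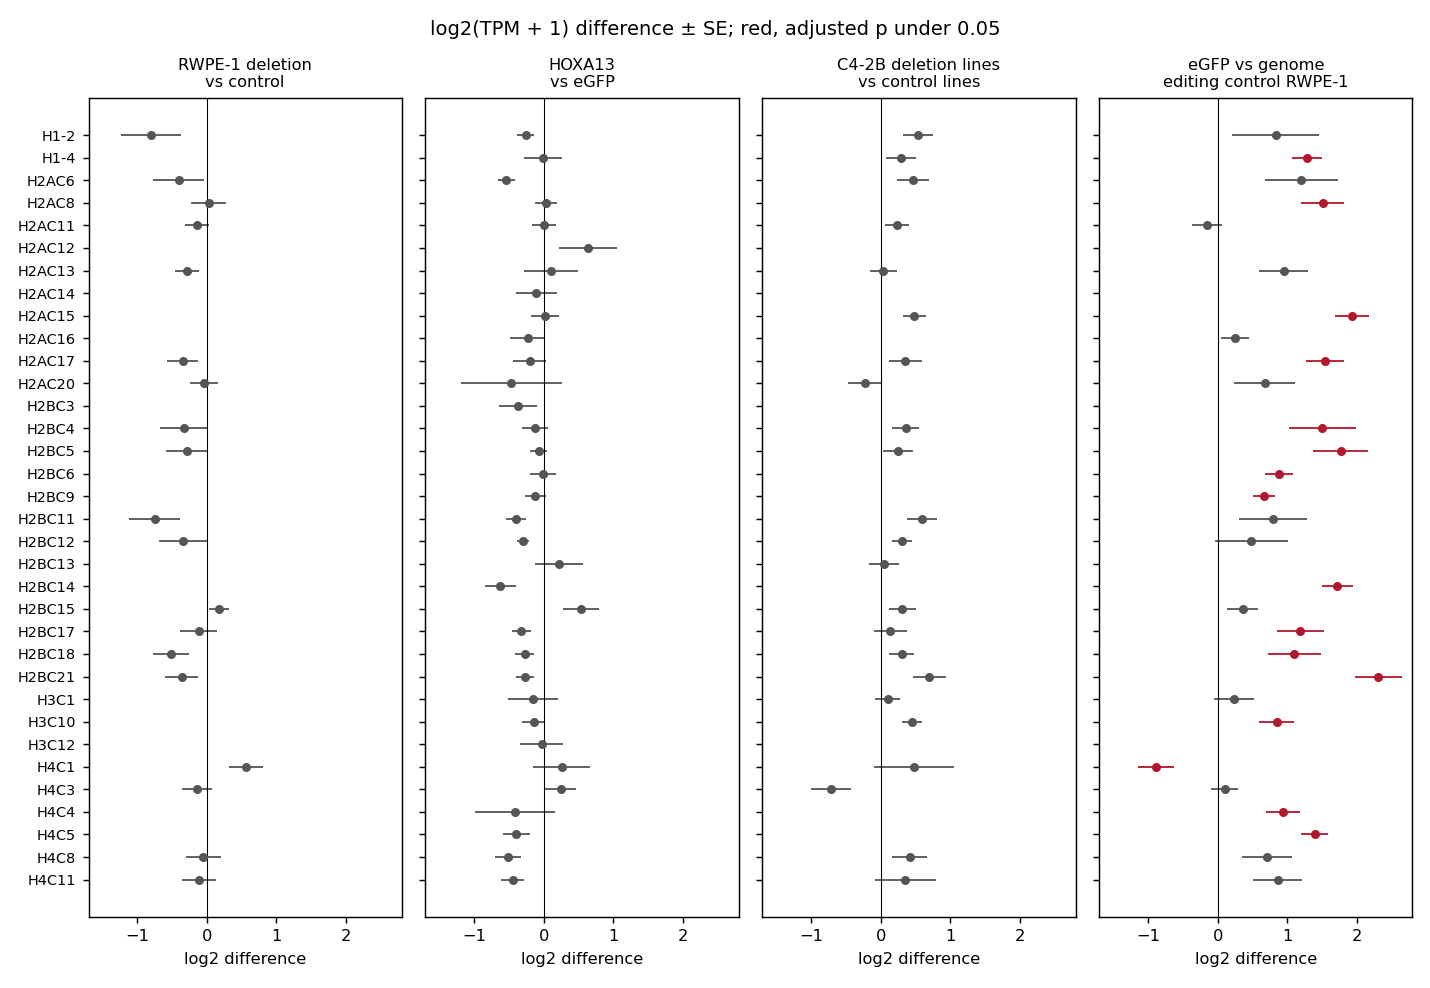
Log2(TPM + 1) difference of each histone gene in 4 comparisons (points, with SE as bars), red where the adjusted p was under 0.05. The first 3 panels hold no red point, and the panel of eGFP against genome editing control RWPE-1 holds 16, of which H4C1 lies below 0.

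Set side by side, the comparisons gave the same genes different values, and those that share libraries are not independent: the genome editing controls enter 2 of them and the eGFP libraries 2. H2BC21 differed by -0.36 in RWPE-1 deletion against control, -0.27 in HOXA13 against eGFP, 0.70 in C4-2B deletion against control lines and 2.31 in eGFP against genome editing controls. H1-2 differed by -0.81, -0.26, 0.53 and 0.83 in the same order. H4C1 differed by 0.56, 0.26, 0.48 and -0.89. Of these 12 values limma, with lines as the replicates in C4-2B, called the last for H2BC21 and the last for H4C1. Without control library 4 the first and last values were -0.10 and 2.57 for H2BC21, -0.27 and 1.37 for H1-2, and 0.64 and -0.80 for H4C1. Limma then also called the last for H1-2 (adjusted p = 0.00318).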

How the data were processed

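RNA was sequenced from 18 RWPE-1 and 18 C4-2B libraries with a stranded mRNA kit, per the labels' protocols. The authors deposited TPM per gene and library, with no counts, so depth is unknown. The authors also deposited a table per comparison with log2 fold changes and p-values; its mean normalized counts (a signal), SEs and test statistics (scores) are also the authors'. STAR 2.5.2b, featureCounts 1.5.1, RSEM 1.3.0, DESeq2 1.14.1 and GRCh37 are named, without roles, per the submitters' processing notes. The Hi-C files were not used. Differences were fitted with limma 3.58.1 in R 4.3.3, with a trend, on log2(TPM + 1). Genes entered at 1 TPM or more in at least the number of samples of the smaller group. P-values, two-sided, were adjusted by Benjamini-Hochberg over all genes tested, with a threshold of 0.05, and SEs are limma's. A fold on this scale understates changes of low genes. C4-2B was tested on means of the 3 libraries of each line. Every member that passed the filter is named, with values by library for those called and for the most abundant of each type. The members and lists were chosen with earlier results of these data known. RefSeq promoters were searched for exact motifs. No pair of libraries held the same values. Same-numbered samples did not deviate together in any comparison, so the numbers were not taken as pairs. Alternatives were other pseudocounts, filters and scalings, a replicate block, and each library or line left out.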

Additional observations from a re-analysis of the deposited data

Results flagged for a closer look

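In 48 groups of values, 1 library lay far from the others of its group in 10, and chance alone marks about 1 group in 20 where groups are independent. These groups are not independent, since they share libraries and the summed levels contain the single genes. The rule did not mark RWPE-1 control library 4, which is described above. RWPE-1 deletion library 3 was far above the other 6 deletion libraries in H1-2 (26.77 TPM), H2AC6 (11.33 TPM), H2BC12 (64.30 TPM) and H2BC17 (2.5 TPM), and in the summed H1 (29.10 TPM) and H2B (92.17 TPM) levels. Deletion library 7 was far above the others in H2AC8 (2.89 TPM). Deletion library 1 was far below the others in H4C3 (1.19 TPM) and in the summed H3 level (1.91 TPM), and control library 1 was far below the other controls in H2BC15 (0.30 TPM).

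For 3 genes every RWPE-1 deletion library lay below the mean of its controls and every C4-2B deletion line above the mean of its controls on the log2 scale, and the difference between the cell lines was not tested. The log2 differences were -0.81 in RWPE-1 deletion libraries and 0.53 in C4-2B deletion lines for H1-2, -0.75 and 0.60 for H2BC11, and -0.52 and 0.30 for H2BC18. In RWPE-1 control library 4 raised the mean of the controls for each of these genes.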

How the results depend on the processing

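In RWPE-1 deletion against control and in HOXA13 against eGFP, 0 members were called under every alternative run. In C4-2B deletion against control lines 0 were called, except 2 with single libraries as replicates, an alternative chosen after seeing the data. Between eGFP and genome editing control cells, 16 members were called, 10 to 22 when 1 library was left out, and 22 with the filter at 0.1 TPM and 18 with no filter. Genes called in all numbered 1464 in RWPE-1 deletion against control. Between eGFP and genome editing control cells they numbered 7094 of 15066, and 5463 to 7010 when 1 library was left out. With the filter at 0.1 TPM they were 8658 of 22168, and with no filter 8365 of 32156. In HOXA13 against eGFP they numbered 2, but 131 when all 18 RWPE-1 libraries were fitted together and 1 with no filter. In C4-2B they numbered 0, but 6 with no filter, 7 without control line 3, 2 without clone m and 213 with single libraries. Among the 6 lines they numbered 5451, but 8208 without library 1 of control line 3. The causes were not tested.

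Same-numbered samples shared only a number: correlations of their deviations were -0.18 to 0.14 in RWPE-1 deletion against control (5 pairs), -0.017 to 0.0059 in HOXA13 against eGFP (3 pairs), -0.14 to 0.10 in C4-2B (45 pairs) and -0.048 to -0.00073 between eGFP and genome editing controls (3 pairs). With the replicate block the members called numbered 0 in each of the first 3 comparisons, 22 between eGFP and genome editing controls and 12 among the 6 lines. Genes called numbered 449, 1, 10, 5574 and 5062 in the same order. In the eGFP comparison, control libraries 4 and 5 had no eGFP library of the same number, so the block left them out of the difference. The 22 calls there thus set the eGFP libraries against control libraries 1, 2 and 3 only. Deletion libraries 6 and 7 were left out in the same way in RWPE-1 deletion against control. H2AC8 turned to -0.15 in RWPE-1 deletion against control and H2AC11 to 0.014 in eGFP against genome editing controls.

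Scaling turned only differences close to 0. Median-ratio scaling gave H2AC8 -0.0012 in RWPE-1 deletion against control, H2AC11 -0.014 and H2AC15 -0.0064 in HOXA13 against eGFP, and H2AC13 -0.0049 in C4-2B. Quantile normalization gave H2AC8 -0.021 in RWPE-1 deletion against control, H2AC8 -0.013, H2AC11 -0.073 and H2AC15 -0.042 in HOXA13 against eGFP, H2AC13 -0.031 and H2BC13 -0.018 in C4-2B, and H4C3 -0.055 in eGFP against genome editing controls. In HOXA13 against eGFP, H2AC11 was -0.0061 with a pseudocount of 0.1 TPM and -0.0081 without mitochondrially encoded genes. Without library 1 of control line 3, H2AC13 was -0.0075, H3C1 -0.013 and H2BC13 -0.059 in C4-2B.

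Leaving out 1 library changed the sign of some log2 differences. In RWPE-1 deletion against control these ran over -0.23 to 0.0064 for H4C3, -0.22 to 0.18 for H4C8, -0.16 to 0.11 for H2AC20, -0.15 to 0.22 for H2AC8, -0.64 to 0.0079 for H2AC6, -0.54 to 0.059 for H2BC4, -0.52 to 0.11 for H2BC12, -0.28 to 0.062 for H2BC17 and -0.31 to 0.10 for H4C11. In HOXA13 against eGFP they ran over -0.34 to 0.48 for H2AC13, -0.37 to 0.11 for H2AC14, -0.37 to 0.044 for H2AC17, -0.18 to 0.058 for H2BC5, -0.14 to 0.11 for H2BC6, -0.18 to 0.65 for H4C1, -0.30 to 0.22 for H1-4, -0.12 to 0.19 for H2AC15, -0.27 to 0.021 for H2BC4, -0.44 to 0.28 for H3C1, -0.099 to 0.095 for H2AC11, -0.32 to 0.16 for H3C12, -0.83 to 0.33 for H4C4, -1.22 to 0.091 for H2AC20 and -0.10 to 0.16 for H2AC8. In C4-2B, with 1 line left out, they ran over -0.071 to 0.19 for H2AC13, -0.065 to 0.26 for H2BC13, -0.076 to 0.25 for H2BC17, -0.040 to 0.24 for H3C1, -0.17 to 0.89 for H4C1 and -0.15 to 0.80 for H4C11.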
